A study of Mus musculus with 16 samples.

Results

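The genes described here are 33 nuclear-encoded genes of the mitochondrial electron transport chain: 17 of complex I, 4 of complex II, 5 of complex III, the gene of cytochrome c and 6 of complex IV. They were taken by symbol, older symbols included, and each was read from its probe set with the highest mean signal. Of the 33, 32 had a probe set, and all 32 were over the filter on low signal that left 12172 genes for testing. Cox7b, of complex IV, had no probe set listed under that symbol alone and is named only. Transcripts were measured in follicles of female C57BL/6Tac mice, given as 8 weeks old in one label and as 6 to 8 weeks in another, from the preantral to the small antral stage. Follicles of 8 mice made up 1 pool, which was divided between a control arm without anti-Müllerian hormone (AMH) and an arm with 50 ng/ml recombinant AMH, for 12 or 24 h. Both arms and both times had follicle-stimulating hormone (FSH, 80 IU/L) and luteinizing hormone (LH, 10 IU/L) in the medium, so no group was free of gonadotropins, and no uncultured follicles were analysed here. Each array held 6 to 9 whole follicles, a mixture of oocyte, granulosa and theca cells. There were 4 arrays in each of the 4 groups, 16 in all, counted as 8 pools, since the labels do not tie a pool at 12 h to one at 24 h.

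Oxidative phosphorylation passes electrons from NADH, at complex I, and from succinate, at complex II, to ubiquinone and on through complex III, cytochrome c and complex IV to oxygen, while complexes I, III and IV pump protons that drive ATP synthase. Most subunits are encoded in the nucleus, and a few core subunits, which are not among these genes, in mitochondrial DNA. In the follicle the oocyte holds many mitochondria and relies on pyruvate that granulosa cells make by glycolysis, and theca and granulosa mitochondria also carry out the first step of steroid synthesis. AMH, a hormone related to TGF-β, is made by the granulosa cells of growing follicles.

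All 32 genes had mean signals above the filter, and their average level differed little between the groups. Values here are log2(signal + 1.46), where the offset is the 10th percentile of all signals, and the gene means over 16 arrays lay between 8.85 and 11.63. Averaged over the 32 genes the value was 10.44 ± 0.06 (SD, n = 4) in the 12 h controls, 10.42 ± 0.08 in the 12 h AMH arrays, 10.40 ± 0.13 in the 24 h controls and 10.40 ± 0.08 in the 24 h AMH arrays. The groups overlapped, and single arrays lay between 10.26 and 10.58. Within groups, the median SD of a gene was 0.16, with a range of 0.09 to 0.37, against 0.27 over all genes tested and 0.19 over the 3043 genes at least as strong as the weakest of these. That last cutoff was set with the values in view.

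The departures of single arrays were shared by many of the genes. The array of control replicate 2 at 24 h was the highest of the 16 for 15 genes, and control replicate 4 at 24 h was the lowest for 10. Control replicate 3 at 12 h was the highest for 9 genes, and AMH replicate 3 at 12 h the lowest for 5. Such counts were not made over all genes, so the pattern cannot be called particular to these. The mean of the complex I genes was 10.66 on control replicate 2 at 24 h against 10.20 on control replicate 4 at 24 h. The complex II mean was 10.03 on the first of these arrays, the lowest of the 16. Sdhd, at 9.68, was at its lowest there, and Sdhb, at 9.96, at its highest. The oocyte marker mean (18 genes) was 7.42 on control replicate 2 and 8.82 on control replicate 4 at 24 h. It was 9.12 on control replicate 3 at 12 h, the highest array for 9 genes. On AMH replicate 3 at 12 h, the lowest for 5, it was 8.23. Its part in the pattern was not tested.

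**Figure D1:**
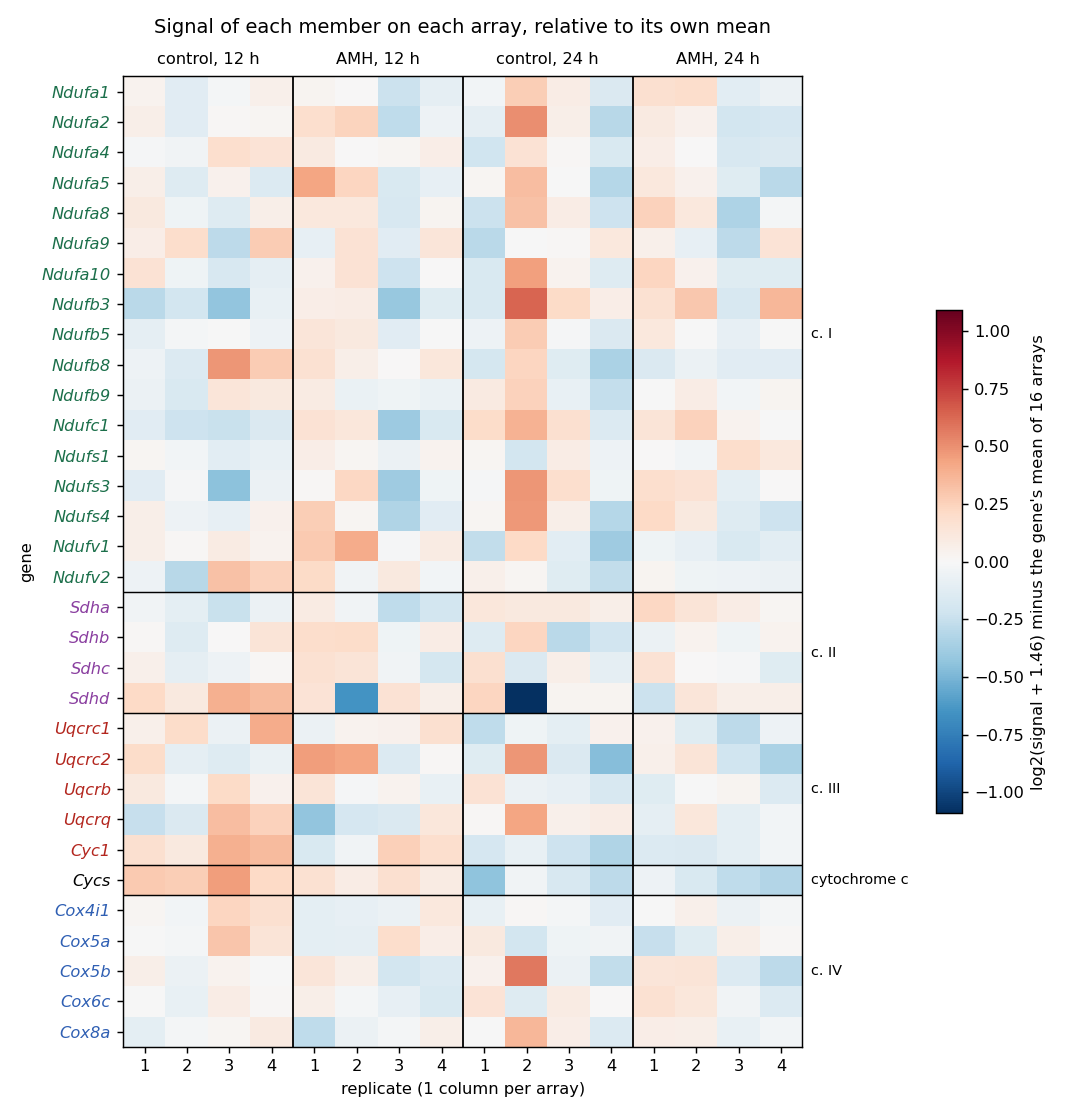
Signal of each of the 32 measured genes (lines, by complex) on each of the 16 arrays (columns, by group and replicate), as log2(signal + 1.46) minus the gene's own mean. Control replicate 2 at 24 h is the highest array for 15 genes and the lowest for Sdhd and Ndufs1, and the Cycs line turns from high at 12 h to low at 24 h in both arms.

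From 12 to 24 h of culture, Cycs fell in both arms and Cyc1 in controls. Cycs encodes cytochrome c, the carrier between complexes III and IV that also starts caspase activation when released from mitochondria, and its signal was 1.46-fold lower at 24 h in controls and 1.26-fold lower with AMH. Cyc1 encodes cytochrome c1, the subunit of complex III that hands electrons to cytochrome c, and was 1.37-fold lower in controls. The change of Cyc1 with AMH did not pass at an adjusted p under 0.05, and neither did the other 30 genes in any comparison over time. Of all genes tested, 19.1% passed in controls, 8.28% with AMH and 23.9% over both arms. Bulk signals cannot tell fewer cells of a type from less RNA per cell.

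Cycs was 11.15, 11.13, 11.32 and 11.09 in the 12 h controls and 11.03, 10.94, 11.04 and 10.96 in the 12 h AMH arrays, for replicates 1 to 4. After 24 h it was 10.43, 10.83, 10.69 and 10.58 in controls and 10.81, 10.70, 10.59 and 10.55 with AMH. All 8 arrays at 12 h were above all 8 at 24 h. Such a lack of overlap held for 1 of the 32 genes, Cycs, against 6.1% of all genes tested. The change was -0.54 in controls (SE 0.09, limma adjusted p = 0.0011), -0.33 with AMH (SE 0.09, adjusted p = 0.0393) and -0.44 over both arms (SE 0.07, adjusted p = 0.0029). The adjusted p with AMH was above 0.05 in 9 of 21 alternative settings, among them each replicate left out in turn (up to 0.218), while the calls in controls and over both arms held in all 21 settings and all 20 settings tried for them.

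Cyc1 was 10.09, 10.02, 10.30 and 10.26 in the 12 h controls and 9.73, 9.83, 9.68 and 9.58 in the 24 h controls. These groups did not overlap. With AMH it was 9.75, 9.88, 10.17 and 10.09 at 12 h and 9.76, 9.76, 9.81 and 9.88 at 24 h, and these groups did overlap. The share of all genes with no overlap between groups of 4 arrays was not counted, here or for the genes below. The change was -0.46 in controls (SE 0.10, limma adjusted p = 0.0060), -0.17 with AMH (SE 0.10, adjusted p = 0.342) and -0.31 over both arms (SE 0.09, adjusted p = 0.0261). The call in controls ended without replicate 3 (-0.41, adjusted p = 0.0540) and without replicate 4 (-0.39, adjusted p = 0.0594), and the call over both arms ended without replicate 1, 3 or 4 (adjusted p = 0.0569, 0.108 and 0.130). The change with AMH minus the change in controls was 0.29 for Cyc1 (SE 0.13, limma adjusted p = 0.876) and 0.21 for Cycs (SE 0.13, adjusted p = 0.928), so no difference between the arms was shown for either gene.

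**Figure D2:**
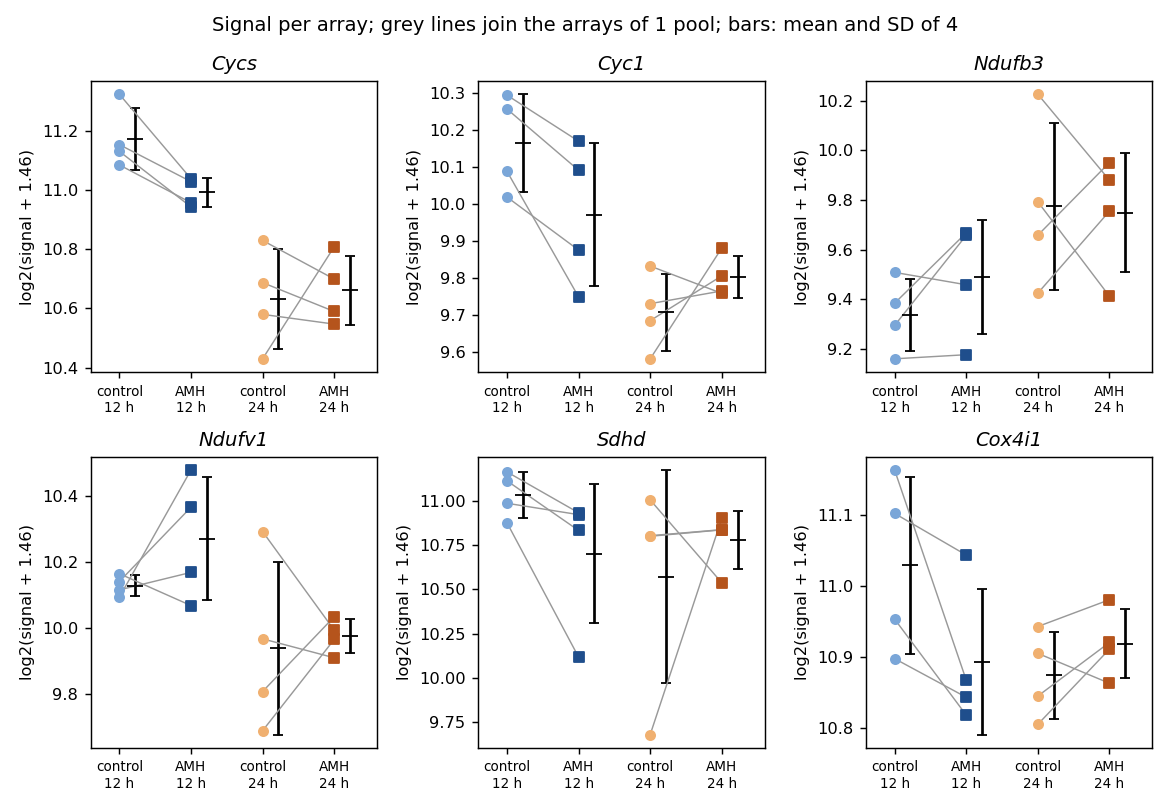
Values of log2(signal + 1.46) on each array for 6 genes, with grey lines joining the control and AMH arrays of 1 pool and black bars for the mean and SD of 4 arrays. Cycs at 12 h lies above 10.9 on every array and at 24 h below it, and Sdhd shows 2 low arrays, at 10.12 and 9.68.

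The bases before the Cycs start site are shown because Cycs is the gene with the firmest change here. RefSeq's promoter windows for build GRCm38.p6, used without those of a single chromosome that was left out, covered 23 of the 33 genes. Each window had 250 bases before the start and 50 after it. The Cycs stretch lies at chr6:50566570-50566819 on the minus strand and is printed 5′ to 3′ up to the start site. The Sdha stretch, at chr13:74350241-74350490 on the minus strand, is shown beside it as a window with 3 matches to the NRF1 letters. Capitals mark matches to GCGCANGCG, the core letters of the motif of nuclear respiratory factor 1 (NRF1), a known activator of respiratory chain genes, and to TGACG or TGACGTCA, the core and the full cyclic AMP response element (CRE), on either strand.
Cycs: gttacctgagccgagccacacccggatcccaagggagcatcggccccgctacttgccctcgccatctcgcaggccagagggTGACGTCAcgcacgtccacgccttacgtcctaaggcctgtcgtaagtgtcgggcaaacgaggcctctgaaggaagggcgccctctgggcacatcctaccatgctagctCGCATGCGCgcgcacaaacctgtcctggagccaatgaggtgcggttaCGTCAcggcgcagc
Sdha: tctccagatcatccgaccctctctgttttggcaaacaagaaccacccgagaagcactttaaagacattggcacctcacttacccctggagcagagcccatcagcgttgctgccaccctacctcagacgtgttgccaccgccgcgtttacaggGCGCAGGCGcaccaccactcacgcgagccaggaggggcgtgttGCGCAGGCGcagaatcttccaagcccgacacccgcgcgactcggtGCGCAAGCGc

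The Cycs window had 1 NRF1 match, 61 bases before the start, and 1 full CRE, 169 bases before it. It also had 3 matches to the core, of which 2 overlap within the full CRE and 1 lies 14 bases before the start. The NRF1 letters occurred in 6 of the 23 genes (Cycs, Ndufa5, Ndufa8, Sdha, Sdhd and Uqcrc1) and in 6.25% of the 32851 full-length windows searched. The full CRE occurred in Cycs and Ndufa10, and in 1.79% of all windows. CCGGAAG, the letters of the GABP factor, occurred in Cox8a, Ndufs3, Sdhb and Sdhd, against 8.86% of all windows. AAGATGGCG, those of YY1, occurred in Ndufa9, Ndufc1 and Ndufs4, against 1.4% of all windows. In the full windows, 10 of the 23 genes held the CRE core, against 20.8% of all. These are letter matches, not measured binding.

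Among all genes, 19.1% changed past the threshold over time in controls (9.19% lower at 24 h), 8.28% with AMH (3.94% lower) and 23.9% over both arms (11.8% lower). The 32 genes gave 2 calls in controls (6.25%), 1 with AMH (3.12%) and 2 over both arms (6.25%), and every one of these calls was lower at 24 h. The median change of the 32 was 0.01 in controls, -0.02 with AMH and -0.02 over both arms, beside -0.01, -0.02 and -0.01 over all genes. The median size of change over both arms, in either direction, was 0.11 for these genes and 0.23 for all genes. Of the 3043 genes at least as strong as the weakest of the 32, 26.2% were called over both arms when tested alone. These calls were 298 higher and 499 lower at 24 h, and the median change of the 3043 was -0.06. Among the 32 the same 2 genes were called. Without the pool of control replicate 2 at 24 h (a setting added with the values in view), Cycs and Cyc1 were called in controls, Cycs with AMH, and Cyc1, Cycs, Ndufb8 and Ndufv1 over both arms.

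**Figure D3:**
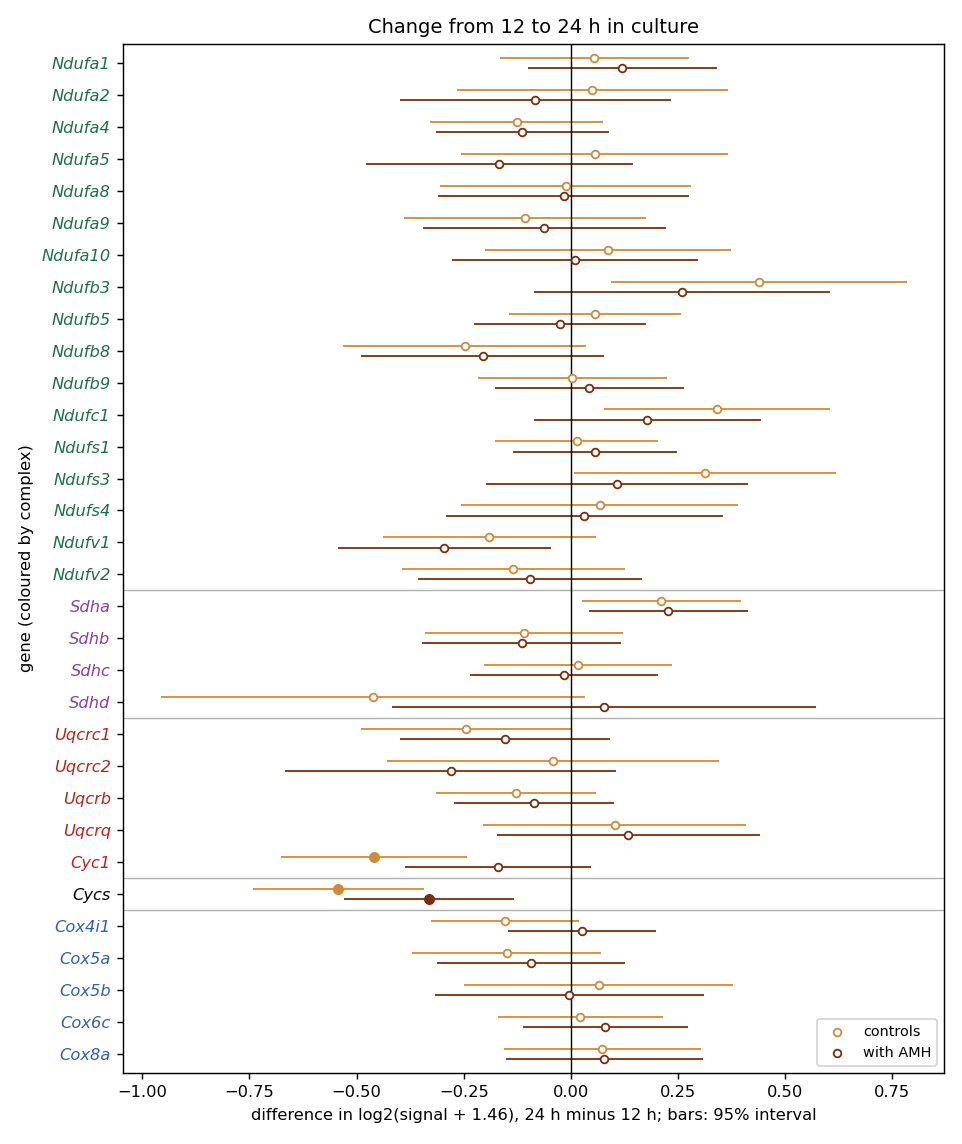
Change of each gene from 12 to 24 h in log2(signal + 1.46), in controls and with AMH, with 95% intervals of the limma fit. Filled points passed at an adjusted p under 0.05 and are Cycs in both arms and Cyc1 in controls, and the open points of the other genes lie between -0.46 and 0.44.

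Complex I takes electrons from NADH, and none of its 17 genes passed in any of the 3 comparisons over time as fitted here, though Ndufb3, Ndufc1, Ndufv1 and Ndufb8 did in some alternative settings. Over both arms 9 of them lay above 0 and 8 below, with a median of 0.02. Ndufb3, an accessory subunit of the membrane arm, was 9.29, 9.38, 9.16 and 9.51 in the 12 h controls and 9.43, 10.23, 9.79 and 9.66 in the 24 h controls. With AMH it was 9.66, 9.67, 9.18 and 9.46 at 12 h and 9.76, 9.88, 9.41 and 9.95 at 24 h. The 24 h arrays were mostly the higher ones, with overlap in both arms, and the change over both arms was 0.35 (SE 0.12, limma adjusted p = 0.0616). It was called in 3 of 21 alternative settings in controls and in 4 of 20 over both arms, where the adjusted p lay between 0.0275 and 0.167.

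Ndufv1, the subunit that binds NADH and the flavin, was between 10.09 and 10.16 in the 12 h controls and 9.81, 10.29, 9.97 and 9.69 in the 24 h controls. With AMH it was 10.37, 10.48, 10.07 and 10.17 at 12 h and 10.03, 9.99, 9.91 and 9.96 at 24 h. The AMH arrays did not overlap between times, the controls did, and the changes were -0.30 (SE 0.12, limma adjusted p = 0.133) and -0.19 (SE 0.12, adjusted p = 0.280). Its probe set is of the kind that can also bind other transcripts.

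Ndufc1, a small subunit of the membrane arm, was between 11.38 and 11.51 in the 12 h controls, and 11.83, 12.01, 11.80 and 11.48 in the 24 h controls. With AMH it was 11.79, 11.75, 11.23 and 11.46 at 12 h and 11.77, 11.88, 11.66 and 11.63 at 24 h. Among the controls, replicate 4 at 24 h was the array that overlapped with 12 h, and the AMH arrays of the 2 times overlapped as well. The change was 0.34 in controls (SE 0.13, limma adjusted p = 0.0659) and 0.26 over both arms (SE 0.10, adjusted p = 0.0964). Ndufc1 was called in 6 of 21 settings in controls, 2 of 21 with AMH and 6 of 20 over both arms, where the adjusted p lay between 0.0040 and 0.307. A second, weaker probe set of the gene did pass, at 0.52 in controls (SE 0.15, adjusted p = 0.0313) and 0.43 over both arms (SE 0.11, adjusted p = 0.0215, limma over probe sets).

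Of the other core subunits, Ndufs1, which carries iron-sulfur clusters of the NADH module, lay between 8.65 and 9.04 over the 16 arrays, and Ndufv2, an iron-sulfur subunit of that module, between 10.02 and 10.65. Ndufs3, a core subunit near the ubiquinone site, had a change of 0.31 in controls (SE 0.14, limma adjusted p = 0.140) with 10.40 on control replicate 2 at 24 h. The accessory subunit Ndufb8 of the membrane arm had a change of -0.23 over both arms (SE 0.10, limma adjusted p = 0.110). Its AMH arrays did not overlap between times (10.37 to 10.53 at 12 h, 10.21 to 10.30 at 24 h), while its controls did. Ndufs4, an accessory subunit whose loss in mice gives a model of Leigh syndrome, had a change of 0.05 over both arms (SE 0.12). Ndufa4, named for complex I and since placed in complex IV, ranged from 10.59 to 10.99. The accessory subunits Ndufa1, Ndufa2, Ndufa5, Ndufa8, Ndufa9, Ndufa10, Ndufb5 and Ndufb9 had no adjusted p under 0.05 either, and their 95% intervals over time included 0 in both arms.

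Complex II, succinate dehydrogenase, is shared with the tricarboxylic acid cycle, and none of its 4 genes passed in the comparisons over time as fitted here, though Sdha did in some alternative settings. Sdha, the flavoprotein that oxidises succinate, was 10.89, 10.83, 10.69 and 10.87 in the 12 h controls and 11.05, 11.04, 11.04 and 10.99 at 24 h, groups that did not overlap. With AMH it was 11.02, 10.89, 10.65 and 10.73 at 12 h and 11.16, 11.08, 11.02 and 10.95 at 24 h, with overlap. The change over both arms was 0.22 (SE 0.08, limma adjusted p = 0.0679), and it was called in 3 of 21 settings in each arm and in 4 of 20 over both, where the adjusted p lay between 0.0104 and 0.718. This probe set can bind more than 1 transcript. Of the 4 probe sets of the gene 2 were over the filter, and the second had a change of -0.04 (SE 0.08).

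Sdhb, the iron-sulfur subunit, was 9.74, 9.58, 9.73 and 9.86 in the 12 h controls and 9.91, 9.93, 9.68 and 9.81 with AMH. At 24 h it was 9.58, 9.96, 9.43 and 9.51 in controls and 9.66, 9.76, 9.68 and 9.77 with AMH, and all groups overlapped. Sdhc, a membrane anchor, lay between 9.39 and 9.75 over all arrays. Sdhd, the other anchor, was 10.99, 10.88, 11.16 and 11.11 in the 12 h controls, 10.92, 10.12, 10.93 and 10.83 in the 12 h AMH arrays, 11.01, 9.68, 10.80 and 10.80 in the 24 h controls and 10.54, 10.90, 10.84 and 10.84 in the 24 h AMH arrays. Its second probe set read 9.46 and 9.82 on the arrays of the 10.12 and the 9.68, within or above its other values in those groups (9.29 to 9.72 and 9.37 to 9.63), so these low values belonged to 1 of the gene's 2 probe sets. That probe set is of the kind that can bind other transcripts.

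In complex III, which passes electrons from ubiquinol to cytochrome c, 4 of 5 genes lay below 0 over both arms, with a median of -0.16, and Cyc1 was the one that passed. Uqcrc1, a core protein on the matrix side, had a change of -0.20 over both arms (SE 0.09, limma adjusted p = 0.139). Uqcrc2, the other core protein, ranged from 9.92 to 10.86 and had a change with a 95% interval of -0.67 to 0.11 with AMH. Uqcrb, a ubiquinone-binding subunit, was 11.61, 11.49, 11.71 and 11.55 in the 12 h controls and 11.66, 11.44, 11.42 and 11.33 in the 24 h controls. With AMH it was 11.65, 11.49, 11.54 and 11.43 at 12 h and 11.37, 11.50, 11.53 and 11.36 at 24 h, and the times overlapped in both arms.

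Complex IV reduces oxygen, and none of its 5 measured genes passed; their changes over both arms lay between -0.12 and 0.08. Cox6c, a small accessory subunit, was 11.49, 11.42, 11.58 and 11.51 in the 12 h controls, 11.56, 11.48, 11.41 and 11.33 in the 12 h AMH arrays, 11.64, 11.36, 11.58 and 11.50 in the 24 h controls and 11.67, 11.63, 11.46 and 11.35 in the 24 h AMH arrays. Cox4i1, the regulatory subunit that binds ATP, was 10.95, 10.90, 11.16 and 11.10 in the 12 h controls and 10.85, 10.94, 10.91 and 10.81 in the 24 h controls. Cox5b, an accessory subunit, was between 11.42 and 11.55 in the 12 h controls and read 11.53, 12.05, 11.41 and 11.22 in the 24 h controls, with the high value on control replicate 2. Cox5a ranged from 10.84 to 11.40 and Cox8a from 9.09 to 9.73 over the 16 arrays. All of these overlapped between times.

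Cell type markers changed over the same interval. Over both arms, where 23.9% of all genes were called, 10 of 13 granulosa markers were higher at 24 h and 1, Amh, was lower. The mean value of Amh, 4.21, was close to the filter at 4.18. The mean of the 13 was 8.50 and 8.61 at 12 h (controls and AMH) and 9.24 and 9.36 at 24 h. Of 10 measured stroma and smooth muscle markers 8 were higher, with means of 7.79 and 8.04 at 12 h and 8.66 and 9.18 at 24 h. Of 6 measured markers of theca and steroidogenic cells 3 were higher, and that list does not single out theca cells. Of 9 surface epithelium markers 3 were lower and 1 higher, and of 9 immune markers 2 were lower. None of 18 oocyte and 11 endothelial markers passed over both arms. In controls, all 11 endothelial markers lay below 0 (median -0.59) and 1, Emcn, was lower, while with AMH 5 lay above 0 and 6 below (median -0.12). The oocyte mean ran from 6.92 to 9.12 over the 16 arrays. Markers from the lists for oocyte, for granulosa and for theca and steroidogenic cells were thus present on the arrays. Of 5 red blood cell markers 1 was over the filter, and none of 6 adipocyte markers was. The part of these markers in the falls of Cycs and Cyc1 was not tested. In the alternative setting with the oocyte marker mean as a covariate, the changes over both arms were -0.44 for Cycs and -0.31 for Cyc1. No setting adjusted for the granulosa or the stroma and smooth muscle markers, which did change over time.

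AMH gave no call for any of the 32 genes. At 12 h 0% of all genes passed, at 24 h 0.0164% did, and for the mean of both times it was 0%, as it was for the change of the AMH effect from 12 to 24 h. By limma the unadjusted p was under 0.05 for 0 of the 32 genes at 12 h, 0 at 24 h, 1 for the mean of both times (Uqcrq) and 1 for the difference (Cyc1), beside 788, 496, 585 and 687 of all genes. The median change was -0.02 at 12 h, with 15 genes above 0 and 17 below, and -0.01 at 24 h, with 15 above and 17 below. The 95% interval of a typical gene (median) reached 0.22 to either side at both times. Over the 32 genes these intervals ran from -0.81 to 0.46 at 12 h and from -0.39 to 0.68 at 24 h. The lower bound of -0.81 and the upper bound of 0.68 were those of Sdhd.

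**Figure D4:**
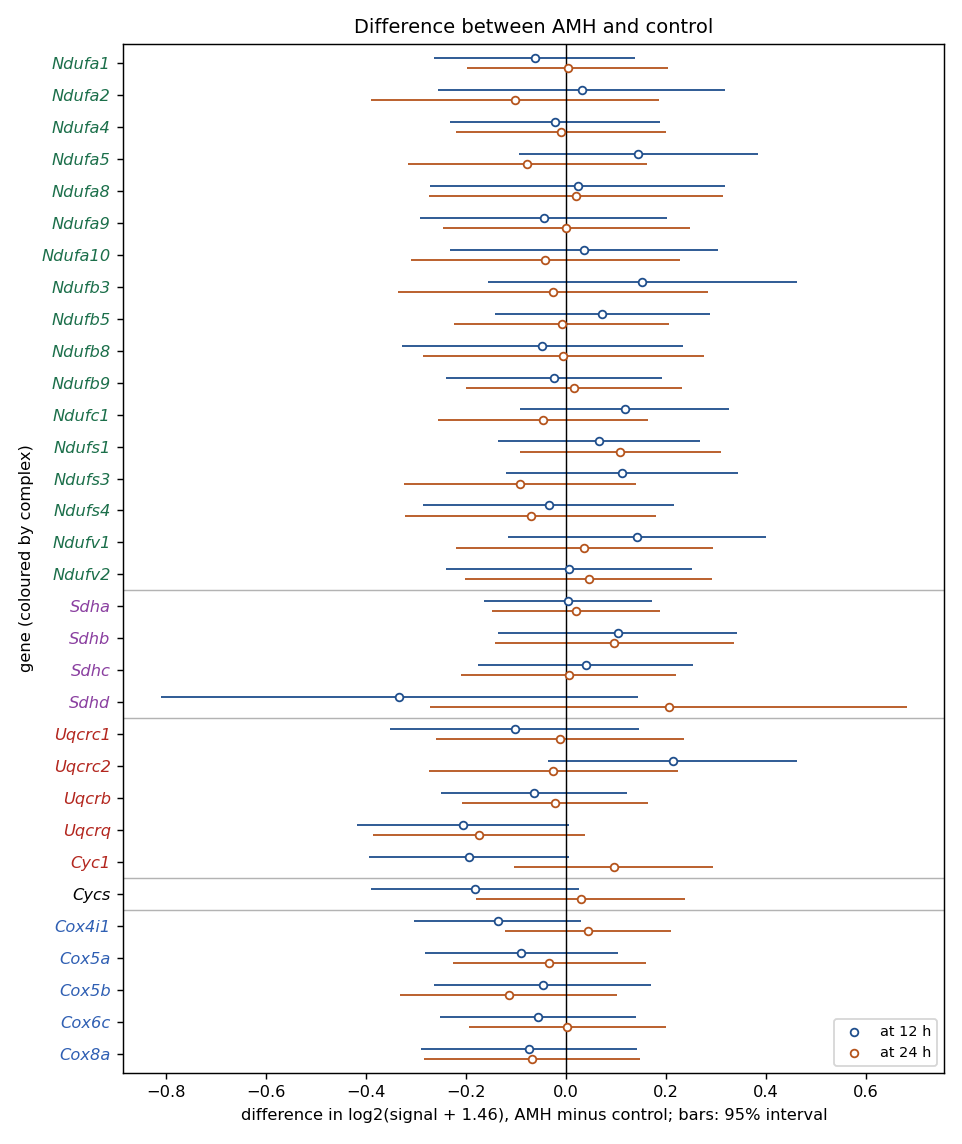
Difference between AMH and control within pools in log2(signal + 1.46), at 12 and at 24 h, with 95% intervals of the limma fit. No point is filled, since no gene passed, and every interval includes 0, the widest being those of Sdhd.

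Uqcrq, a small subunit of complex III, had the smallest p with AMH at either time. It was 9.67, 9.77, 10.26 and 10.18 in the 12 h controls and 9.50, 9.74, 9.77 and 10.05 with AMH, and 9.94, 10.36, 9.98 and 10.01 in the 24 h controls and 9.83, 10.05, 9.82 and 9.89 with AMH. The AMH array was below its control in 4 of 4 pairs at each time, while the groups overlapped. The differences were -0.21 at 12 h (SE 0.10, limma adjusted p = 0.778), -0.17 at 24 h (SE 0.10, adjusted p = 1.0) and -0.19 over both times (SE 0.07, adjusted p = 0.959). A weaker probe set of the gene had differences of 0.23 at 12 h and -0.19 at 24 h.

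At 12 h, 9 of the 32 genes (28.1%) had 1 direction in all 4 pairs, against 17.9% of all genes, and at 24 h 1 of 32 did, Uqcrq, against 9.39%. The 9 were Uqcrq, Cyc1, Cycs, Sdhd, Cox4i1, Cox5a and Cox8a, with the AMH array lower, and Ndufs1 and Ndufs3, with it higher. In pairs 1 to 4 at 12 h the differences of Cycs were -0.13, -0.19, -0.29 and -0.13, and those of Cyc1 were -0.34, -0.14, -0.12 and -0.17. At 24 h they were 0.38, -0.13, -0.10 and -0.03 for Cycs and 0.03, -0.07, 0.12 and 0.30 for Cyc1, so the pairs had no common direction there. Cox4i1 with AMH was 10.82, 10.84, 10.87 and 11.04 at 12 h and 10.92, 10.98, 10.86 and 10.91 at 24 h, with differences of -0.14 (SE 0.08, limma adjusted p = 0.801) and 0.04. Ndufs1 was 8.86, 8.82, 8.73 and 8.77 in controls and 8.92, 8.87, 8.78 and 8.88 in the 12 h AMH arrays, then 8.87, 8.65, 8.93 and 8.79 in controls and 8.85, 8.82, 9.04 and 8.96 in the 24 h AMH arrays, which overlapped at both times. Cox5b with AMH was 11.61, 11.55, 11.28 and 11.33 at 12 h and 11.61, 11.62, 11.33 and 11.20 at 24 h, with a difference at 24 h of -0.11 (SE 0.10, limma adjusted p = 1.0). These comparisons at 12 h share their control arrays with the comparison of times in controls.

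Several probe sets of the same gene gave a check within the arrays. The 32 genes had 61 probe sets over the filter, and 20 genes had more than 1. All probe sets of a gene had 1 direction over time in 16 of the 20 in controls, in 14 with AMH and in 16 over both arms. For AMH against control they had 1 direction in 8 of the 20 at 12 h and in 10 at 24 h. It was 9 for the mean of both times and 9 for the difference between times. The same was not counted over all genes. The 3 probe sets of Cycs had changes of -0.54, -0.70 and -0.49 in controls, of which the first and second passed (limma over probe sets, adjusted p = 0.0014, 0.0051 and 0.0940), and of -0.33, -0.46 and -0.15 with AMH, of which the first passed (adjusted p = 0.0456, 0.0746 and 0.715). Cyc1 had 1 probe set. The only others called over both arms were the second probe set of Ndufc1, above, and a weak probe set of Ndufs4, at 0.47 (SE 0.15, adjusted p = 0.0464), whose strongest probe set had 0.05.

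The rest of the respiratory chain and its surroundings were read from lists of genes that were no part of the 32, beside the 23.9% of all genes called over both arms in either direction. Over both arms, 2 of 17 other complex I subunits were higher at 24 h and none lower (median 0.02): Ndufa7, at 0.43 (SE 0.11, limma adjusted p = 0.0179), and Ndufs5, at 0.41 (SE 0.13, adjusted p = 0.0387). Of 9 other subunits of complexes III and IV, 1 was lower, Cox7c, at -0.54 (SE 0.17, adjusted p = 0.0477), with mean signals of 6.32 and 5.83 in controls at the 2 times. Of 14 genes listed for ATP synthase 1 was higher (median -0.01), Dmac2l, listed under its older name Atp5s and a coupling factor rather than a core subunit, at 0.83 (SE 0.16, adjusted p = 0.0050). Of 8 genes listed as isoforms, 5 restricted to certain tissues or to hypoxia and 3 (Atp5g1, Atp5g2 and Atp5g3) for the widely expressed c subunit of ATP synthase, 1 was higher, Cox7a1, the form of heart and skeletal muscle, at 1.14 (SE 0.17, adjusted p = 0.0016).

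Of 36 assembly factors, 4 were higher and 1 was lower. They included Nubpl, which delivers iron-sulfur clusters to complex I, at 0.90 (SE 0.12, limma adjusted p = 0.0012), Sdhaf4, which helps assemble complex II, at 0.52 (SE 0.09, adjusted p = 0.0040), and Atpaf1, for ATP synthase, at 0.37 (SE 0.08, adjusted p = 0.0092). Of 27 mitochondrial ribosome proteins 3 were lower, Mrps18b at -0.37, Mrps22 at -0.36 and Mrpl22 at -0.23, none was higher, and 21 lay below 0 (median -0.17), beside 11.8% of all genes called lower. Of 28 genes of import, carriers and membrane 4 were lower and none was higher, against the same background. Of the 28, 24 lay below 0 (median -0.13). Among those called lower were Slc25a5, an ADP/ATP carrier, at -0.37 and the import receptors Tomm20 at -0.37 and Tomm40 at -0.32. Of all 12172 genes tested, 6254 lay below 0 over both arms (median -0.01). The 3043 strongest genes, tested alone, had 298 calls higher and 499 lower, with a median of -0.06. Whether either list leaned lower than genes of like strength was not tested.

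Of 19 regulators of mitochondrial biogenesis 1 was higher and 3 were lower, with Ppara, a receptor that drives fatty acid oxidation genes, at 0.73 (SE 0.12, limma adjusted p = 0.0028), Ppard, a related receptor, at -0.56 (SE 0.11, adjusted p = 0.0074) and Polg, the polymerase of mitochondrial DNA, at -0.42 (SE 0.10, adjusted p = 0.0154). Of 17 tricarboxylic acid cycle genes 1 was higher, Suclg2, a subunit of succinyl-CoA ligase, at 0.71 (SE 0.09, adjusted p = 0.0007). Of 20 glycolysis genes 1 was higher, Pfkm, the muscle phosphofructokinase, at 0.90 (SE 0.12, adjusted p = 0.0009), and 1 was lower, Slc2a1, the glucose transporter GLUT1, at -0.62 (SE 0.12, adjusted p = 0.0059). Of the 20, the gene listed as Gpi1 was read through a shared older name from a probe set annotated to Pigq, which was not called, so its value is not that of the glycolytic enzyme. None of 6 genes of uncoupling and reactive oxygen passed, the smallest p being that of Prdx3, a mitochondrial peroxidase, at 0.26 (SE 0.09, adjusted p = 0.0523). With AMH against control, none of the genes in these lists passed at 12 or at 24 h.

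**Figure D5:**
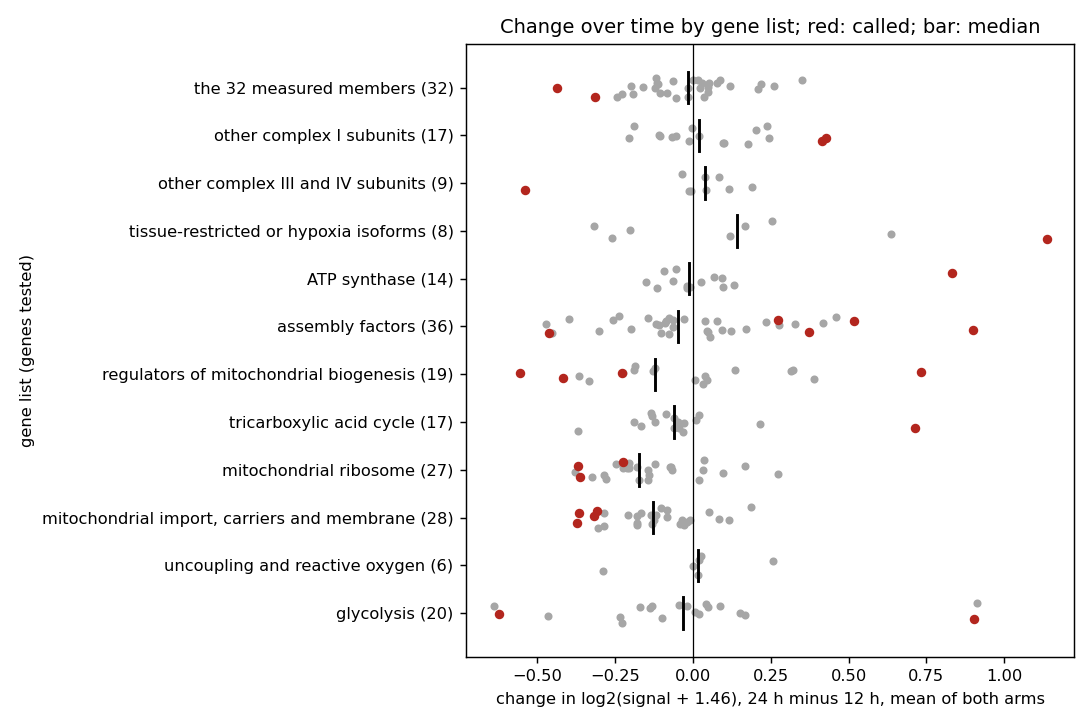
Change from 12 to 24 h over both arms in log2(signal + 1.46) for each gene of the 32 and of the 11 other lists, with called genes in red and a bar at each list's median. The 32 genes have 2 red points, both below 0, and the mitochondrial ribosome and import lists have 3 and 4 red points, all below 0.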

How the data were processed

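Biotin-labelled cDNA from 5 ng of total RNA per sample was hybridised to 16 Affymetrix mouse arrays. The authors deposited linear signal intensities per probe set from the MAS5 method, as named in the submitters' processing notes. Its version is not given in the sources used here. With 2% trimmed at each end, every array had a mean signal of 150.001, so a scaling had been applied before deposit, which can hide a change common to most genes. Medians per array ran from 27.8 to 40.2. Detection calls were not used here.

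Intensities were turned into log2(signal + 1.46). Of 45101 probe sets, 34945 carried 1 gene symbol in an older platform annotation; 932 with several, 9160 with none and 64 controls were left out. The strongest probe set stood for a gene, and genes with a mean under the 40th percentile (log2 4.18, signal 16.6) were left out. A gene's scale is its own: levels of different genes were not compared. Limma 3.58.1 (R 4.3.3; lmFit, eBayes with trend) tested 12172 genes, 2-sided, with Benjamini-Hochberg adjustment over all of them and a threshold of 0.05. AMH was tested within 8 pools as a block, times with 4 group means, or 8 pool means over both arms. The labels do not say whether pools of 1 replicate number were shared between times; they were taken as separate. The pairing is from the labels; correlations of paired deviations were 0.30, 0.35, 0.56 and 0.21 at 12 h and -0.44, 0.33, 0.20 and -0.29 at 24 h. Each pool is an experiment of its own. The p-values for AMH measure the spread of differences within pools, and those for time over both arms the spread between pool means. Those for time in each arm measure the spread of arrays within the 4 groups, with the arrays of a pool taken as independent. Having 4 pools per group limits the precision. The fit was also run on simulated arrays with independent noise and no pool effect, which cannot check how pools were handled.

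The genes and lists were chosen with earlier results of these data known. Named by rule are, per comparison, up to 8 genes with the largest change among those called (filled to 3 by smallest p), the gene with the highest probe signal in each complex (only to pick examples), and up to 3 genes by p from each other list; Ndufs3, Ndufb8, Ndufs4 and Uqcrc1 were given values after theirs were seen, and the 6 genes plotted singly were picked in the same way. Alternatives were other offsets, filters, scalings, probe set rules, blocks, weights and each replicate left out. Motifs were searched as letters on both strands in RefSeq windows (GRCm38.p6).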

Additional observations from a re-analysis of the deposited data

Results flagged for a closer look

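In 4 of the 132 groups of 4 arrays examined (32 genes and the mean over them, in 4 groups each), 1 array stood apart by Dixon's test (at the 95% level, on the gap to its nearest neighbour over the whole range). Chance gives about 1 in 20 groups. Sdhd read 10.12 on AMH replicate 2 at 12 h, where the others lay between 10.83 and 10.93. It read 9.68 on control replicate 2 at 24 h, where the others lay between 10.80 and 11.01. Uqcrq read 10.36 on the same array, with the others between 9.94 and 10.01. Ndufb9, a complex I subunit, read 11.09 on AMH replicate 1 at 12 h, with the others between 10.93 and 10.95.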

How the results depend on the processing

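None of the genes was called for AMH in any setting. Over time, the counts of the 32 genes called in controls, with AMH and over both arms were 2, 1 and 2. They were 4, 3 and 5 with quantile normalization, 5, 3 and 5 with cyclic loess, and 6 and 2 in the 2 arms with array weights; Ndufb3, Ndufc1, Sdha, Uqcrc1 and Ndufv1 were the genes gained. A replicate block across times, where the labels do not say that a number marks 1 pool (correlations from -0.08 to 0.21), gave 4 in controls and 6 over both arms; AMH without the block of pairs gave 0. The pool as a random block gave 5 over both arms, and leaving out the pool of control replicate 2 at 24 h gave 4. With AMH the count was 0 without a filter, with median centring, with the mean of all probe sets, with probe sets of single targets and with only the arrays compared. Leaving out 1 replicate gave 1 to 3 in controls, 0 with AMH and 1 to 3 over both arms.

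Over all genes, leaving out 1 replicate gave 1185 to 1552 calls in controls (2330 in all), 344 to 638 with AMH (1008) and 1337 to 2100 over both arms (2915). It gave 0 to 1 for AMH at 24 h, over both times and for the difference. Array weights gave 3945 in controls, 1857 with AMH over time, and for AMH 3 at 12 h, 7 at 24 h, 6 over both times and 21 for the difference. AMH at 24 h, 2 calls in all, had 0 with no filter, quantile, cyclic loess, mean of probe sets, no replicate block, only the arrays compared, the pool left out or the 3043 strongest genes alone. AMH at 12 h and the difference had 1 and 1 call with quantile normalization, 2 and 2 with the oocyte mean as a covariate, and 1 and 2 among the 3043 genes, where fewer genes tested gave 626, 287 and 797 calls over time. Leaving out the pool gave 1 for the difference, and over time 1721 in controls, 625 with AMH and 2369 over both arms. The median change of the 32 moved between -0.13 and 0.09 over all settings and comparisons.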
